A study of Mus musculus with 18 samples.

Results

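The genes described here are 10 cytosolic heat shock genes of mouse brown adipocytes: Hspa1a, Hspa1b, Hspa8, Hsph1, Hsp90aa1, Dnajb1, Hspb1, Hspb8, Bag3 and Hsf1. They were taken by symbol from the 20295 genes of the count table, and all 10 were among the 12156 genes with enough reads to be tested. The cells were BAT-LgT, a single wild-type line of brown preadipocytes that carries the SV40 large T antigen, and RNA was sequenced on day 7 after they had been made to differentiate in culture. Cells were left alone or pre-treated for 1 h with inhibitors of ATGL and HSL, the lipases that start the breakdown of stored triglyceride, and then received either DMSO, 100 nM of the β-adrenergic agonist isoproterenol (ISO), or SR-3420 over 3 h. The last of these binds ABHD5 and lets this co-activator switch on ATGL without a signal from the β-adrenergic receptor, and its dose is 10 µM per the labels and another value in the text of the study. The groups are called Vehicle, ISO and SR-3420, with the prefix Lipase Inh. where inhibitors were present, and each of the 6 holds 3 libraries, which the methods describe as independent experiments.

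Heat shock proteins are chaperones that hold unfolded proteins in solution, refold them or pass them on for degradation. In the cytosol, HSP70 proteins bind exposed hydrophobic stretches in a cycle driven by ATP, J-domain proteins of the HSP40 family deliver the client and start ATP hydrolysis, and nucleotide exchange factors such as HSP110 and the BAG proteins release it. HSP90 finishes the folding of kinases and receptors, and small heat shock proteins hold clients without using ATP. Cells that meet unfolded protein, heat or other stress free the transcription factor HSF1 from its chaperones, and HSF1 trimers then bind heat shock elements, which are inverted repeats of the 5-base unit nGAAn, in front of these genes.

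Hspa1a and Hspa1b encode the stress-inducible HSP70 and are near-identical neighbours on the minus strand of chromosome 17. In build mm9, which the files use, Hspa1a lies at chr17:35106304-35109101 and Hspa1b at chr17:35093374-35096183, with 10120 bases between them, and both were counted over their whole length, without introns. Over the 1926 coding bases compared, 1890 bases (98.1%) were identical, and the longest stretch without a difference was 638 bases. A read from such a stretch cannot be assigned to one copy, so the split between the rows is uncertain and the sum of both is given beside them. Hspa1a also overlaps an exon of the gene model Gm20481 on the opposite strand, and whether the counting used strand is not stated. The promoter windows of Hspa1a and Hspa1b were as alike as their coding sequences, with 247 of 250 bases before the start identical. The other 8 genes are spread over 6 chromosomes of mm9, with Hspb1 at chr5:136363789-136365433, Hsph1 at chr5:150419420-150438890, Hspb8 at chr5:116858504-116872873, Bag3 at chr7:135667097-135690493, Dnajb1 at chr8:86132074-86135802, Hspa8 at chr9:40609356-40613282, Hsp90aa1 at chr12:111929246-111934605 and Hsf1 at chr15:76307875-76331402. For each of these 8 genes the length over which reads were counted, as the files give it, was shorter than the gene's span.

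Promoter sequences from RefSeq (GRCm38.p6) were available for 7 of the 10 genes, Hspa1a, Hspa1b, Hspb1, Hspb8, Hsph1, Bag3 and Dnajb1, in 9 windows of 250 bases before and 50 bases after the annotated start. Hspa8, Hsp90aa1 and Hsf1 had no entry. The windows were searched on both strands for 2 adjoining heat shock units (GAANNTTC or TTCNNGAA) and for 3 units (GAANNTTCNNGAA or TTCNNGAANNTTC, each of which holds both forms of the shorter motif). The pair of units was present in windows of 6 genes (all but Dnajb1), against 15.1% of all 32851 windows in the table. Hspa1a and Hspa1b were counted separately here, although their windows are near-identical. The second Dnajb1 window lay downstream of the start that the first was built on. The run of 3 units was found in Hsph1, from position 37 of the first annotated transcript, against 0.603% of all windows. Neither the cyclic AMP response element TGACGTCA (1.79% of all windows) nor the C/EBP-ATF motif TGATGCAA (0.895%) occurred in a window of these genes. The last 130 bases before the start are shown for 4 of them, 5′ to 3′ on the gene's own strand, because the first 3 are the genes whose response to ISO turned from higher to a value below the control when the lipases were inhibited, and the fourth is one whose response stayed. The 2-unit motif is in capitals.
Hspa1a, chr17:34972157-34972286, minus strand: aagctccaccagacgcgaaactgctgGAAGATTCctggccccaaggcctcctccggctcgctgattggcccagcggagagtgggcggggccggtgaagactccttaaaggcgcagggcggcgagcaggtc
Hspa1b, chr17:34959239-34959368, minus strand: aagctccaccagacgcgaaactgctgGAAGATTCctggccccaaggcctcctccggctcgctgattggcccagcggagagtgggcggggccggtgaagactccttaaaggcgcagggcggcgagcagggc
Hspb1, chr5:135887789-135887918, plus strand: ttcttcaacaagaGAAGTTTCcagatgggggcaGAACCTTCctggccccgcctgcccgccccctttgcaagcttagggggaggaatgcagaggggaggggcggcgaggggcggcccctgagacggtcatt
Hsph1, chr5:149636337-149636466, minus strand: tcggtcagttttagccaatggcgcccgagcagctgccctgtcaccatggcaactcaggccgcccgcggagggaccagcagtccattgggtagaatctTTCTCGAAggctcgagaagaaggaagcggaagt
The motif began 104 bases before the start in both Hspa1a and Hspa1b, at 117 and 97 bases in Hspb1 and at 33 bases in Hsph1. In Hspb8 and Bag3 it lay inside the transcript, at positions 3 and 43 counted from the start. These matches are letters in a window and say nothing of binding.

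Total counts lay between 10310447 and 21205032 in 17 libraries and were 4263755 in Lipase Inh. + SR-3420 replicate 2, in which the gene Lars2 took 18.3% of the reads. Of the calls on the 10 genes given below, the call of Hsf1 with ISO was the one lost without that library. The 10 brown adipocyte markers summed to between 9809 and 15260 CPM. CPM is the count scaled to a common library size with TMM factors and is the scale of all levels here. Levels differed widely within this list. The median over the libraries was 3205 CPM for Adipoq and 2748 for Fabp4. It was 56.04 CPM for Cidea, 36.38 for Prdm16 and 5.795 for Ucp1, which ranged from 1.387 to 788.6 CPM. The macrophage list summed to between 1.959 and 6.296 CPM, nearly all of it Cd68, with Ptprc at 0 in every library, and the endothelial and skeletal muscle marker lists summed to at most 0.6308 and 2.548 CPM. The 5 preadipocyte and fibroblast markers, all detected, summed to 32.69 to 40.76 CPM in Vehicle, 44.91 to 55.98 in ISO, 45.63 to 46.66 in SR-3420 and 31.47 to 37.62 in Lipase Inh. + Vehicle. With inhibitors they reached 38.72 to 51.86 CPM under ISO and 33.97 to 35.18 under SR-3420. The brown adipocyte markers summed to 11450 to 12320 CPM in Vehicle, 14150 to 15260 in ISO, 12570 to 13080 in SR-3420 and 9809 to 10730 in Lipase Inh. + Vehicle. With inhibitors they summed to 12250 to 12480 CPM under ISO and 11590 to 12460 under SR-3420. The preadipocyte and brown adipocyte sums were both higher in ISO and SR-3420 than in Vehicle, as were most heat shock genes. Their part in the results was not tested. In bulk RNA, fewer cells of a type and less RNA per cell cannot be told apart.

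In unstimulated cells Hspa8 and Hsp90aa1 were the most abundant of the 10 genes. Per kilobase of counted length, Hspa8, the constitutive cytosolic HSP70, stood at 411 ± 10.48 CPM (SD, n = 3) in Vehicle, and Hsp90aa1, the stress-responsive HSP90α, at 156 ± 3.28. Hspb8, a small heat shock protein that works with BAG3, followed at 79.0 ± 3.06, and then Dnajb1 at 53.9 ± 4.77, Hspa1b at 48.2 ± 3.19 and Bag3 at 34.6 ± 1.32 CPM per kilobase. Taken row by row, the lowest were Hsf1 at 20.1 ± 2.82, Hsph1 at 16.5 ± 2.01, Hspb1 at 14.98 ± 1.24 and Hspa1a at 10.9 ± 2.01. The places of Hspa1a and Hspa1b, here and with ISO, depend on the uncertain split of reads between these copies. Their sum, not scaled by length, stood at 166 ± 14.8 CPM in Vehicle and 1138 ± 261 CPM with ISO. The SDs of Dnajb1 and Hspa1b overlapped, as did those of Hsf1 and Hsph1 and of Hsph1 and Hspb1, so these neighbours could not be placed in order. With ISO, Hspa8 (769 ± 103 CPM per kilobase) was still the highest, and Hsp90aa1 (449 ± 94.9) and Hspa1b (318 ± 68.8) followed with SDs that overlapped. Hspb8, Dnajb1 and Bag3 (155 ± 25.5, 125 ± 42.7 and 122 ± 17.7) could not be placed in order either, and Hsf1 was the lowest at 24.7 ± 4.02.

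ISO and SR-3420 were compared with Vehicle to ask whether a β-adrenergic signal, and activation of ATGL without that signal, change these genes. With ISO, 10 of 10 heat shock genes were higher than in Vehicle at an adjusted p of at most 0.05 (edgeR's quasi-likelihood test with Benjamini-Hochberg adjustment over all genes tested, as for every adjusted p here) and none was lower, while over all genes tested 26.8% were higher and 25.0% lower. With SR-3420, 9 of 10 were higher, all but Hsf1, and none was lower, against 26.0% higher and 25.4% lower over all genes. Counting genes that also rose by at least 1 on the log2 scale, the study's threshold, 7 of the 10 were included with each agent, against 5.03% of all genes with ISO and 3.97% with SR-3420. The median log2 fold change of the 10 genes was 1.67 with ISO and 1.498 with SR-3420, and that of all genes -0.02 with both. Scaling by total counts alone moved the median of all genes by -0.31 with ISO and -0.16 with SR-3420, so that 1496 genes were higher and 6004 lower with ISO, and 1947 and 4369 with SR-3420, while 9 of the 10 heat shock genes were higher and 0 lower with each agent. For 9 of the 10 genes every ISO and every SR-3420 library lay above every Vehicle library, against 28.2% of all genes with ISO and 28.5% with SR-3420 (27.4% and 27.7% lay below), and Hsf1 was the gene whose groups overlapped.

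Of the 10 genes, the inducible HSP70 genes had the largest fold changes. Hspa1a was at 34.9, 32.3 and 24.2 CPM in the Vehicle libraries, at 253, 307 and 176 CPM with ISO and at 271, 384 and 196 CPM with SR-3420. The lowest stimulated library lay far above the highest Vehicle library, and the ISO and SR-3420 libraries overlapped. The rise was 8.02-fold with ISO (log2 3.00 ± 0.21, SE, adjusted p = 7.71e-11) and 9.23-fold with SR-3420 (log2 3.21 ± 0.21, adjusted p = 4.72e-11). Hspa1b was at 145, 133 and 128 CPM in Vehicle, at 887, 1088 and 701 CPM with ISO and at 931, 1218 and 700 CPM with SR-3420. Again no stimulated library came near the Vehicle libraries, and Hspa1b rose 6.59-fold with ISO (adjusted p = 3.24e-12) and 7.01-fold with SR-3420 (adjusted p = 3.16e-12). The sum of both rows rose from 166 ± 14.8 CPM in Vehicle to 1138 ± 261 with ISO and 1235 ± 356 with SR-3420, which was 6.85-fold (log2 2.78 ± 0.16, adjusted p = 6.4e-12) and 7.43-fold (log2 2.89 ± 0.16, adjusted p = 5.5e-12). The share of Hspa1a in the pair's counts was 18.3% ± 2.04 in Vehicle, 21.4% ± 1.17 with ISO and 22.8% ± 1.06 with SR-3420, and averaged between 17.8% and 18.8% in the 3 groups with inhibitors.

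Hspb1 encodes HSP27, a small heat shock protein that also binds actin. It was at 14.4, 13.9 and 12.3 CPM in Vehicle, 69.7, 101 and 54.3 CPM with ISO and 64.95, 86.7 and 40.9 CPM with SR-3420. All stimulated libraries were well above Vehicle, with replicate 3 the lowest under both agents, and the rise was 5.53-fold with ISO (log2 2.47 ± 0.22, adjusted p = 5.3e-09) and 4.70-fold with SR-3420 (log2 2.23 ± 0.22, adjusted p = 3.25e-08). Hspb8 rose less, 1.97-fold with ISO (log2 0.98 ± 0.12, adjusted p = 4.89e-07) and 1.52-fold with SR-3420 (log2 0.60 ± 0.12, adjusted p = 0.000226).

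The 3 co-chaperones of HSP70 among the 10 genes, Dnajb1, Hsph1 and Bag3, rose with both agents. Dnajb1, the main stress-inducible HSP40, was at 134, 112 and 120 CPM in Vehicle, 272, 384 and 192 CPM with ISO and 375, 493 and 310 CPM with SR-3420. Every stimulated library was above every Vehicle library, and Dnajb1 rose 2.32-fold with ISO (log2 1.21 ± 0.17, adjusted p = 3.11e-06) and 3.21-fold with SR-3420 (log2 1.68 ± 0.17, adjusted p = 4.38e-08). Hsph1, an HSP110 that exchanges nucleotide on HSP70, was at 54.2, 65.4 and 52.6 CPM in Vehicle, 207, 277 and 147 CPM with ISO and 188, 222 and 133 CPM with SR-3420. Its groups did not overlap, and it rose 3.67-fold with ISO (adjusted p = 1.88e-08) and 3.15-fold with SR-3420 (adjusted p = 1.55e-07). Bag3, the exchange factor that links HSP70 and HSPB8 to selective autophagy, was at 93.6, 86.9 and 88.9 CPM in Vehicle, 311, 364 and 273 CPM with ISO and 184, 199 and 170 CPM with SR-3420. Here the agents gave separate levels, all ISO libraries above all SR-3420 libraries, with a rise of 3.52-fold for ISO (log2 1.82 ± 0.09, adjusted p = 8.49e-13) and 2.05-fold for SR-3420 (log2 1.04 ± 0.09, adjusted p = 7.84e-09).

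**Figure D1:**
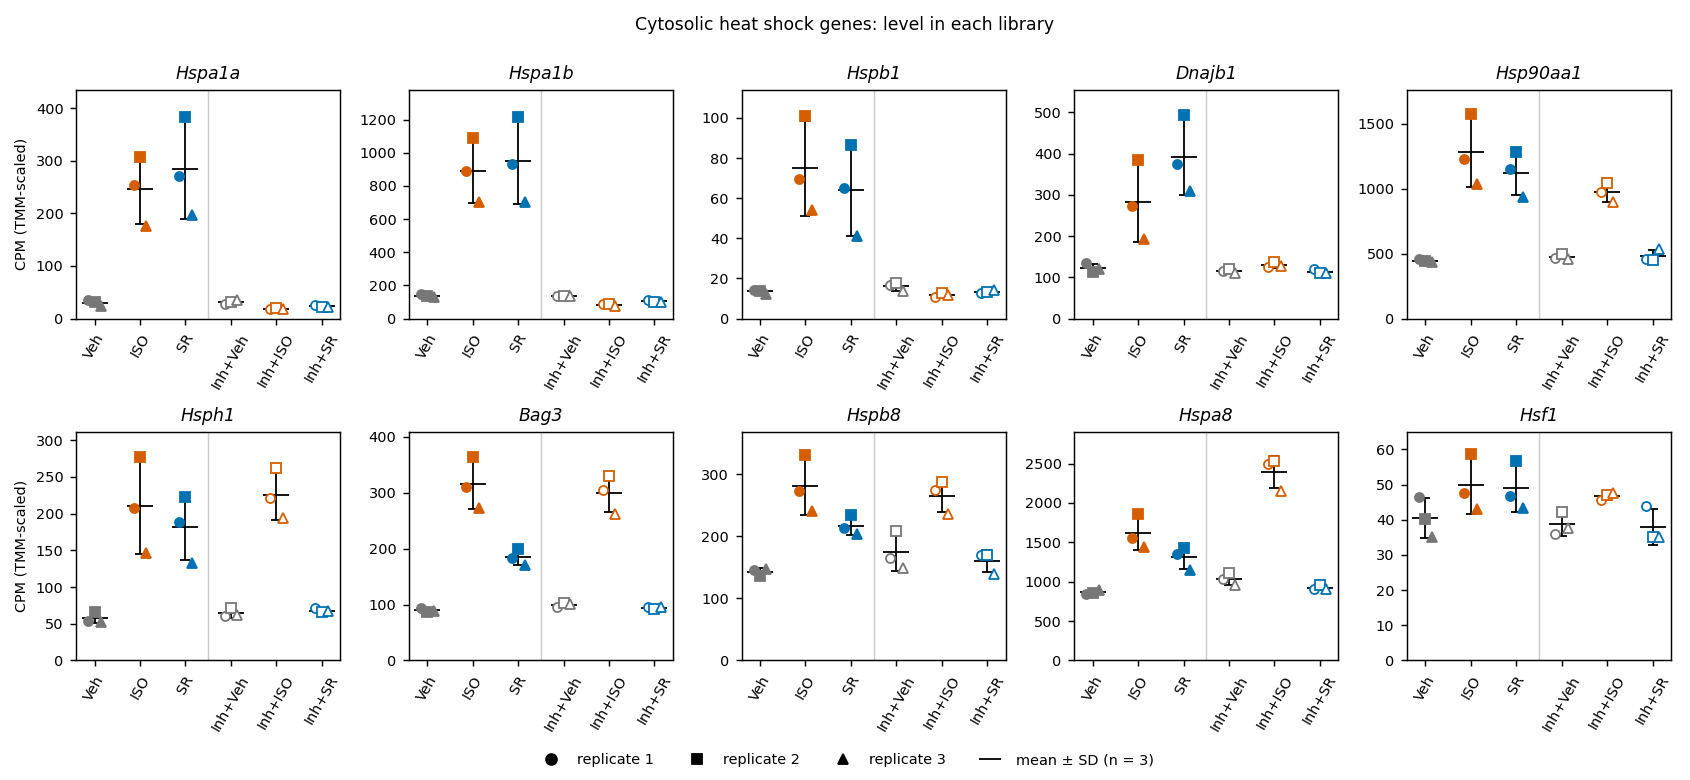
Level of each of the 10 genes in every library, as CPM of TMM-scaled libraries on a linear axis that starts at 0; symbols mark the replicate number, open symbols the groups with lipase inhibitors (Inh), and bars the mean ± SD of 3 libraries. Hspa1a, Hspa1b, Hspb1 and Dnajb1 are high in the ISO and SR-3420 groups and near or below the Vehicle groups once inhibitors are present, whereas Hsp90aa1, Hsph1, Bag3, Hspb8 and Hspa8 are also high with ISO in the presence of inhibitors.

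Hsp90aa1 was at 455, 441 and 437 CPM in Vehicle, 1229, 1573 and 1039 CPM with ISO and 1155, 1285 and 935 CPM with SR-3420. The Vehicle libraries lay within a narrow band, and every stimulated library was above them, by 2.88-fold with ISO (log2 1.53 ± 0.12, adjusted p = 6.75e-10) and 2.53-fold with SR-3420 (log2 1.34 ± 0.12, adjusted p = 7.19e-09). Hspa8 rose from 866 ± 22.1 CPM to 1619 ± 217 CPM with ISO, which was 1.87-fold (adjusted p = 4.39e-08), and to 1308 ± 145 CPM with SR-3420, which was 1.51-fold (adjusted p = 1.62e-05). The annotation places the small nucleolar RNA genes Snord14c, Snord14d and Snord14e inside Hspa8 on the same strand, so reads from them could count here too.

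Hsf1, the regulator itself, had the smallest fold changes of the 10 genes with both agents. It was at 46.4, 40.1 and 35.1 CPM in Vehicle, 47.7, 58.9 and 43.1 CPM with ISO and 46.9, 56.6 and 43.5 CPM with SR-3420, and the groups overlapped. The ISO value passed the threshold narrowly, at 1.23-fold (log2 0.30 ± 0.12, adjusted p = 0.0493), and the SR-3420 value did not (log2 0.26 ± 0.12, adjusted p = 0.0771). The call with ISO was lost without any 1 of 12 of the 18 libraries (adjusted p from 0.0513 to 0.326), namely Vehicle replicates 2 and 3, ISO replicates 1 and 2, SR-3420 replicate 1, Lipase Inh. + SR-3420 replicate 2 and all 6 libraries of Lipase Inh. + Vehicle and Lipase Inh. + ISO. It was also lost with DESeq2 (adjusted p = 0.0523). Its log2 fold change was 0.16 without ISO replicate 2 and -0.01 when libraries were scaled by total counts alone. With SR-3420 Hsf1 passed with the replicate number as a block (adjusted p = 0.0289) and without SR-3420 replicate 3 (0.35, 0.0407) or Vehicle replicate 1 (0.38, 0.0265), each of which made 10 of 10 genes higher. The level of the Hsf1 transcript does not measure the activity of the protein, which is set after translation.

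Lipase inhibitors alone left no heat shock gene past the threshold: 0 of 10 were higher and 0 lower in Lipase Inh. + Vehicle than in Vehicle, against 0.485% and 0.428% of all genes (0.239% and 0.329% with total counts), with 2 genes (Hspb8 and Hspa8) higher at an unadjusted p under 0.05 and 0 of 10 called by DESeq2. The log2 fold changes lay between -0.09 (Dnajb1) and 0.29 (Hspb8). For 4 of the 10 genes, Hspa8, Hsp90aa1, Hspb8 and Bag3, all 3 Lipase Inh. + Vehicle libraries lay above all 3 Vehicle libraries without a call, against 8.03% of all genes, and 0 of the 10 lay below, against 7.40%. The sum of Hspa1a and Hspa1b was 163, 166 and 171 CPM with inhibitors alone, close to the 181, 166 and 151 CPM of Vehicle.

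The effect of SR-3420 was then compared with and without inhibitors, since SR-3420 acts through ATGL. In the presence of inhibitors, edgeR called 0 of the 10 genes in either direction (against 2.99% higher and 1.36% lower over all genes, or 0.938% and 1.89% with total counts), with 1 gene (Hspa1b) lower at an unadjusted p under 0.05, and DESeq2 called 0 of 10. The log2 fold changes lay between -0.44 (Hspa1a) and 0.08 (Hsph1). Hspa1b stood at 110, 102 and 96.8 CPM in Lipase Inh. + SR-3420 and at 135, 134 and 137 CPM in Lipase Inh. + Vehicle, so the groups did not overlap, but the difference of -0.40 ± 0.15 did not pass over all genes (adjusted p = 0.174). It passed in 3 alternative fits, and the sum with Hspa1a did too (-0.42 with adjusted p = 0.0261 without a filter on low counts, -0.41 with 0.00852 on the groups compared alone and -0.40 with 0.0347 with the replicate number as a block, against -0.40 with 0.192 as fitted here). Hspa1a and Hspa8 were likewise below the control in every library without passing the test, and the other 7 genes overlapped, whereas over all genes 8.19% lay below the control in every library and 11.8% above it. The difference between the SR-3420 effects with and without inhibitors was itself past the threshold, and negative, for 9 of 10 genes, all but Hsf1, and positive for 0 (also 0 at an unadjusted p under 0.05 and with DESeq2), against 14.8% and 12.5% of all genes. It was -3.64 ± 0.30 (log2, SE) for Hspa1a (adjusted p = 1.97e-08), -3.20 ± 0.21 for Hspa1b (adjusted p = 7.8e-10), -2.48 ± 0.33 for Hspb1 (adjusted p = 1.01e-05) and -1.69 ± 0.24 for Dnajb1 (adjusted p = 2.16e-05). The smallest called differences were those of Hspa8 at -0.76 and Hspb8 at -0.73.

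With ISO the 10 genes divided. In the presence of inhibitors, ISO still raised 5 of them, Hsph1, Bag3, Hspa8, Hsp90aa1 and Hspb8, while Hspa1a and Hspa1b fell and Dnajb1, Hspb1 and Hsf1 did not pass the test, against 29.4% higher and 28.3% lower over all genes (16.2% and 42.1% with total counts). The groups did not overlap for any of the 10 genes, with 7 above the control in every library and 3 below it, against 33.4% and 31.8% of all genes. The difference between the ISO effects with and without inhibitors was past the threshold and negative for 5 genes, Hspa1a, Hspa1b, Hspb1, Dnajb1 and Hsp90aa1, and past the threshold and positive for 0 (16.6% and 14.9% of all genes, or 1464 and 2071 of 12156 genes with total counts). At an unadjusted p under 0.05, 1 gene (Hspa8) had a positive difference, and DESeq2 called 0. This gene was called with total counts, without a filter on low counts, with the replicate number as a block and without ISO replicate 2 or Lipase Inh. + ISO replicate 3, each giving a count of 1.

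The rise of both inducible HSP70 genes with ISO was not seen once the lipases were inhibited. Hspa1a was at 17.4, 19.2 and 17.7 CPM in Lipase Inh. + ISO and at 28.1, 31.4 and 34.4 CPM in Lipase Inh. + Vehicle. Every ISO library lay below every control library, and the fall was 1.74-fold (log2 -0.80 ± 0.22, adjusted p = 0.00421). Hspa1b was at 85.5, 87.1 and 78.6 CPM against 135, 134 and 137 CPM, a fall of 1.62-fold (log2 -0.70 ± 0.15, adjusted p = 0.000415). The sum of both rows fell by 0.71 on the log2 scale (from 167 ± 3.90 to 102 ± 5.25 CPM, adjusted p = 0.000554), and the difference from its effect without inhibitors was -3.49 ± 0.22 (adjusted p = 1.33e-10). Hspb1 was at 10.7, 12.9 and 11.7 CPM with ISO and inhibitors and at 16.6, 17.8 and 13.6 CPM with inhibitors alone, so the groups did not overlap although the change of -0.44 ± 0.24 did not pass the test (adjusted p = 0.126). Hspb1 was called lower in 4 alternative fits, without a low-count filter (adjusted p = 0.0487), on the groups compared alone (0.0094), with the replicate number as a block (0.0321) and with total counts (-0.66, 0.0139), which made 3 genes lower in place of 2. The difference between its ISO effects was -2.90 ± 0.33 (adjusted p = 4.67e-07). Dnajb1 was at 124, 138 and 126 CPM against 115, 119 and 110 CPM (log2 0.18 ± 0.17, adjusted p = 0.383), and the difference between its ISO effects was -1.03 ± 0.24 (adjusted p = 0.00193). Its change with inhibitors was -0.05 under total counts (adjusted p = 0.82), and was called higher, at 0.17, on the groups compared alone (adjusted p = 0.0363).

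Hsph1, Bag3 and Hspa8 behaved otherwise. Hsph1 was at 221, 262 and 194 CPM in Lipase Inh. + ISO and at 60.01, 71.4 and 61.7 CPM in Lipase Inh. + Vehicle, about the levels it had without inhibitors, and it rose 3.51-fold (log2 1.81 ± 0.18, adjusted p = 2.05e-08). The difference between its ISO effects was -0.07 ± 0.25 (adjusted p = 0.874), with a 95% interval from -0.56 to 0.43. Bag3 was at 305, 330 and 263 CPM against 95.3, 102 and 102 CPM, a rise of 2.99-fold (adjusted p = 3.91e-12), and the difference was -0.23 ± 0.13 (adjusted p = 0.179, interval from -0.49 to 0.02). Hspa8 reached its highest level of all groups here, at 2492, 2530 and 2157 CPM against 1040, 1107 and 959 CPM, a rise of 2.31-fold (log2 1.21 ± 0.09, adjusted p = 3.51e-10). All 3 of these Hspa8 libraries were above the 3 ISO libraries without inhibitors, yet the difference between the ISO effects, 0.31 ± 0.13, did not pass the test (adjusted p = 0.0794). Hspb8 rose 1.52-fold (log2 0.60 ± 0.12, adjusted p = 0.000144), and its difference of -0.37 ± 0.17 did not pass either (adjusted p = 0.0946), though it did without a low-count filter (0.046), with the replicate number as a block (0.0154) and without ISO replicate 3 (0.036) or Lipase Inh. + Vehicle replicate 3 (0.0396).

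Hsp90aa1 lay between these patterns. It was at 973, 1043 and 898 CPM with ISO and inhibitors against 468, 495 and 460 CPM, a rise of 2.05-fold (log2 1.03 ± 0.12, adjusted p = 1.58e-07), and the difference from its effect without inhibitors was -0.49 ± 0.17 (adjusted p = 0.0269). This last call was lost with total counts (-0.41, adjusted p = 0.0888) and without ISO replicate 2 (-0.31, adjusted p = 0.106), Lipase Inh. + ISO replicate 1 (adjusted p = 0.0526) or 3 (0.0745), Lipase Inh. + Vehicle replicate 2 (0.0578) or Vehicle replicate 2 (0.0515). Hsf1 was at 45.6, 47.0 and 47.7 CPM against 35.9, 42.3 and 37.8 CPM with its groups apart, but did not pass the test (log2 0.28 ± 0.12, adjusted p = 0.0586). Hsf1 was called higher here without a low-count filter (0.0304), on the groups compared alone (0.0111), with the replicate number as a block (0.0176) and without any 1 of 7 libraries (0.0382 to 0.0496), namely Vehicle replicates 1 and 3, ISO replicates 2 and 3, SR-3420 replicate 2, Lipase Inh. + Vehicle replicate 2 and Lipase Inh. + SR-3420 replicate 1. Over the alternatives, the number of the 10 genes higher with ISO and inhibitors ran from 5 to 7.

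**Figure D2:**
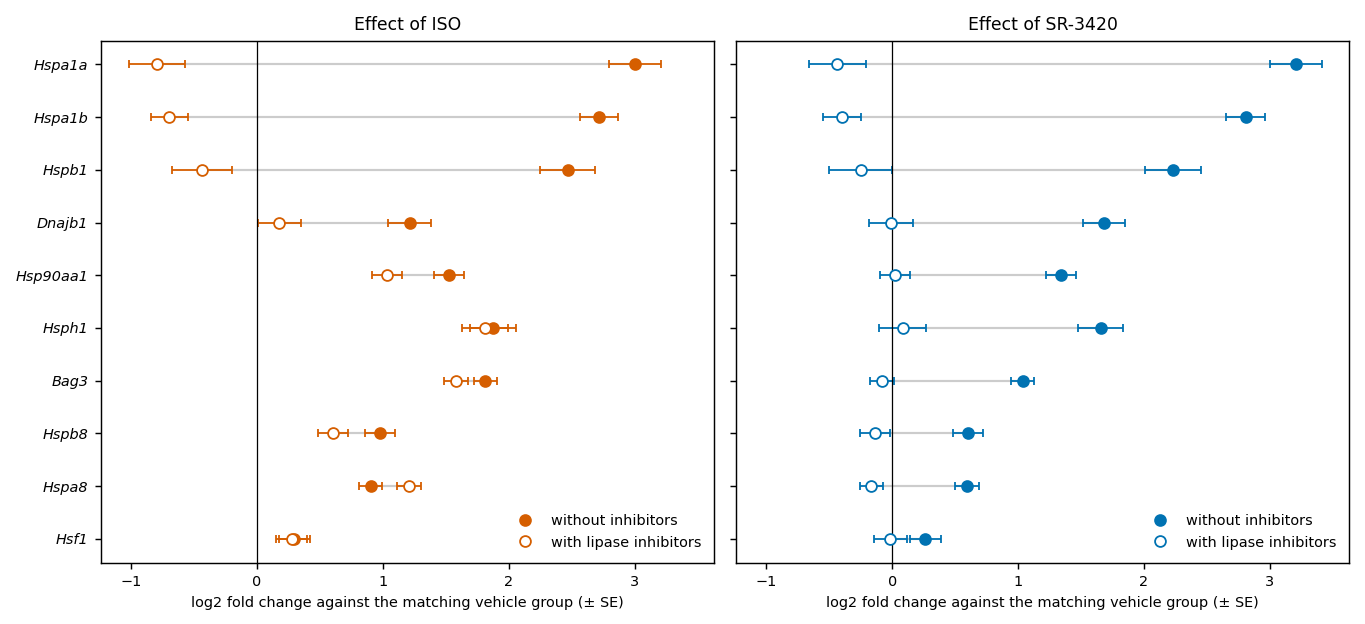
Log2 fold change (± SE) of each gene for ISO (left) and SR-3420 (right), each against the matching vehicle group, without inhibitors (filled) and with them (open). On the right all open points lie between -0.44 and 0.08, while on the left the open points run from -0.80 (Hspa1a) to 1.81 (Hsph1) and lie within 0.07 of the filled ones for Hsph1 and Hsf1.

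ISO and SR-3420 were also compared directly, without inhibitors. The doses are of different drugs, so the contrast is between these 2 treatments as given. Of the 10 genes, 3 were higher with ISO (Bag3, Hspb8 and Hspa8) and 1 was lower (Dnajb1), against 15.8% and 13.9% of all genes (6.38% and 25.0% with total counts, which moved the median gene by -0.15 and left 1 of the 10 higher, Bag3, and 1 lower, Dnajb1). Every ISO library lay above every SR-3420 library for the same 3 genes and below for 0 of the 10, against 22.4% and 21.5% of all genes. Bag3 was 1.72-fold higher with ISO (log2 0.78 ± 0.09, adjusted p = 1.3e-06), which held without any 1 library. Hspb8 (0.37 ± 0.12, adjusted p = 0.019) lost its call without ISO replicate 2 (0.24, adjusted p = 0.155) or SR-3420 replicates 1 (0.0591) or 3 (0.0884). Hspa8 (0.31 ± 0.09, adjusted p = 0.0153) lost its call without ISO replicate 2 (0.19, adjusted p = 0.137) or SR-3420 replicate 3 (0.119). For Dnajb1 the ISO and SR-3420 libraries overlapped (192 to 384 and 310 to 493 CPM), and its difference of -0.47 ± 0.16 (adjusted p = 0.034) lost its call without ISO replicate 1 (0.101) or 3 (-0.26, 0.186) or SR-3420 replicate 1 (0.0561) or 2 (-0.27, 0.228), and was -0.76 without ISO replicate 2. DESeq2 gave an adjusted p of 0.0649 for it. The sum of Hspa1a and Hspa1b differed by -0.12 ± 0.15 between ISO and SR-3420 (adjusted p = 0.597), with an interval from -0.41 to 0.18.

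The stimulated libraries of these genes spread more than other genes did. The median coefficient of variation of the 10 genes was 21.4% among the ISO libraries and 19.7% among the SR-3420 libraries, against 8.86% and 7.53% over all genes tested. In the 4 other groups the median of the 10 genes was at most 8%. In the ISO and SR-3420 groups alike, replicate 2 was the highest and replicate 3 the lowest library for all 10 genes, a pattern that 8.66% of all genes tested shared. Hspa1b, for example, was at 1218 CPM in SR-3420 replicate 2 and at 700 CPM in SR-3420 replicate 3. The order was not particular to the 10 genes. Stk40, Col6a3, Plin2, Dnaja4 and Dnajb4, all described below, had it in both groups as well. Plin2 was at 1725, 2166 and 1483 CPM in ISO replicates 1, 2 and 3. Bag2, Bag4, Hspb2 and Hspb7 did not have it in both groups. The replicate numbers are not stated to mark a shared culture day, and what these libraries share was not tested.

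**Figure D3:**
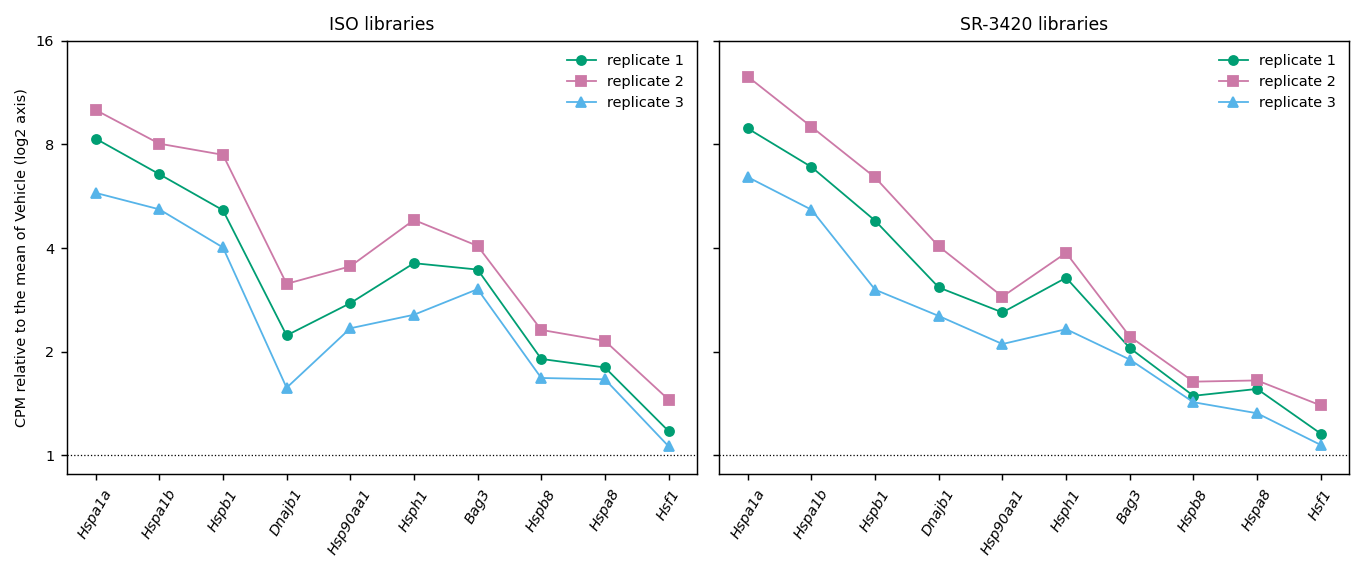
Level of each gene in each ISO library (left) and SR-3420 library (right), divided by the mean of the Vehicle libraries, on a log2 axis. The lines of the 3 replicates hardly cross: replicate 2 is the highest and replicate 3 the lowest for all 10 genes in both groups.

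Across the 18 libraries the genes formed overlapping profiles, which are given as a description, since the points share their treatment groups. On log2 CPM, Pearson's r of Hspa1b was 0.984 with Hspb1 and 0.940 with Dnajb1, but 0.518 with Hsph1, 0.462 with Bag3 and 0.149 with Hspa8. Hsph1 in turn had an r of 0.963 with Hsp90aa1, 0.959 with Bag3, 0.928 with Hspb8 and 0.902 with Hspa8. Among the 9352 genes whose log2 CPM averaged 3 or more, the genes most like the sum of Hspa1a and Hspa1b included Hspb1 (0.984), Stk40 (0.976), Col6a3 (0.973) and Plin2 (0.973). Plin2, a lipid droplet coat protein, was at 319 ± 31.1 CPM in Vehicle, 1791 ± 346 with ISO and 1943 ± 227 with SR-3420. With inhibitors it was at 271 ± 22.6 CPM without an agent and 175 ± 9.39 with ISO, but at 387 ± 28.7 with SR-3420, a rise of 0.52 (log2, adjusted p = 0.00806) where the sum of Hspa1a and Hspa1b was at -0.40 without passing the test.

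Other chaperone genes were taken from lists by their place in the folding machinery, 53 genes in all, of which 51 were tested (Hspb3 and Hsf5 had too few reads). With ISO 25 of the 51 (49.0%) were higher and 5 lower, against 26.8% and 25.0% of all genes, and with SR-3420 13 (25.5%) were higher and 9 lower, against 26.0% and 25.4%. With inhibitors, 29 were higher and 8 lower with ISO, against 29.4% and 28.3% of all genes, and 1 was higher and 1 lower with SR-3420, against 2.99% and 1.36%. The median over the 51 was a log2 value of 0.24 (ISO) and 0.10 (SR-3420). These counts moved with the scaling, since with total counts alone 11 were higher and 16 lower with ISO, 9 and 14 with SR-3420 and 16 and 13 with ISO and inhibitors, an alternative added after the data were seen. With the replicate number as a block, 25 were higher and 8 lower with ISO, against 28.8% and 27.5% of all genes. That block gave 19 higher and 10 lower with SR-3420, against 27.9% and 27.6% of all genes. Genes with a log2 fold change of at least 1 in some comparison are named by rule (Dnaja4, Dnajb4, Bag2, Bag4, Hspb2 and Hspb7), and the other names below were chosen after their values were seen.

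Of the 8 other J-domain genes, 5 were higher and 0 lower with ISO (edgeR and DESeq2, with 1 lower at an unadjusted p under 0.05), against 26.8% and 25.0% of all genes. With SR-3420 4 were higher and 1, Dnajb6 at -0.22, was lower, against 26.0% and 25.4% of all genes. With total counts 4 were higher and 2 lower with ISO, Dnajb6 turning to -0.03, and 4 and 1 with SR-3420. Dnaja4, a partner of HSP70, went from 10.4, 8.58 and 12.1 CPM in Vehicle to 63.98, 74.9 and 59.03 CPM with ISO, a log2 rise of 2.68, and from 10.1, 11.5 and 7.97 to 74.6, 88.0 and 83.3 CPM when inhibitors were present, a rise of 3.07. It thus rose with ISO in both settings, as Hsph1 and Bag3 did, and its rise with SR-3420 was 1.05. Dnajb4 followed Dnajb1 more closely, with 1.103 for ISO, 1.38 for SR-3420 and 0.38 for ISO with inhibitors, all past the test, and a difference of -0.72 between the ISO effects. Of the 14 other genes of the HSP70 system, 5 were higher and 3 lower with each agent (3 and 5 with ISO and 4 and 4 with SR-3420 under total counts). The shares of all genes were 26.8% and 25.0% with ISO and 26.0% and 25.4% with SR-3420. The ubiquitin ligase Stub1 fell by 0.36 with ISO and 0.35 with SR-3420, and Bag1 fell by 0.36 with SR-3420. Bag2 (1.15 and 0.64) and Bag4 (1.09 and 0.94) rose with ISO and SR-3420, and with inhibitors and ISO Bag2 rose by 0.60 and Bag4 fell by 0.43. Hspa1l, a testis HSP70 that lies beside Hspa1a in the genome, fell by 0.86 with ISO and by 0.59 with SR-3420.

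All 8 subunits of TRiC, the ring chaperonin that folds actin and tubulin, were tested. With ISO 7 of 8 were higher, all but Cct7, by 0.30 (Cct5) to 0.63 (Cct3) on the log2 scale, against 26.8% of all genes. With ISO and inhibitors 8 of 8 were higher, by 0.35 (Cct7) to 0.94 (Cct3), against 29.4% of all genes. With SR-3420 edgeR called 0 of 8 (26.0% of all genes were higher and 25.4% lower), with 3 higher at an unadjusted p under 0.05 and 1 called by DESeq2. The replicate number as a block gave 3 of 8 higher with SR-3420 and 0 lower, against 27.9% and 27.6% of all genes. Compared directly, 7 of 8 were higher with ISO than with SR-3420, against 15.8% of all genes. With total counts alone the counts were 1 of 8 with ISO (Cct5 at -0.01), 6 of 8 with ISO and inhibitors and 0 of 8 in the direct comparison, where 8 of 8 values were above 0 and 3 had an unadjusted p under 0.05. Among the 9 other genes of the HSP90 system, 4 were higher and 1 lower with ISO (26.8% and 25.0% of all genes) and 2 were higher and 2 lower with SR-3420 (26.0% and 25.4%), or 2 and 3 with ISO and 1 and 3 with SR-3420 under total counts. The co-chaperones Ptges3 (0.61 and 0.33) and Chordc1 (0.53 and 0.54) were among the higher ones with both agents, Fkbp5 fell by 0.59 and 0.26, and Fkbp4 fell by 0.52 with SR-3420. Among the mitochondrial chaperones, 4 of 5 were higher with ISO, Hspe1, Hspa9, Hspd1 and Dnaja3, by 0.57, 0.52, 0.40 and 0.24, against 26.8% of all genes. With total counts it was 1 of 5, Dnaja3 turning to -0.06. With SR-3420 1 of 5, Hspe1, was higher and 1 lower (0 and 2 with total counts), against 26.0% and 25.4% of all genes. Of the 4 small heat shock proteins tested outside the 10 genes, edgeR and DESeq2 called 0 with ISO and 0 with SR-3420 (1 lower and 1 higher at an unadjusted p under 0.05 with edgeR, in that order). Total counts gave 2 lower with ISO and 1 lower with SR-3420, and the replicate number as a block gave 1 lower with ISO and 1 higher with SR-3420. With ISO and inhibitors, Hspb6 fell by 0.74 and Hspb2 by 1.91, the latter from 1.17, 0.82 and 0.35 CPM to 0.27, 0.27 and 0.10 CPM. Hspb7, at 2.47 CPM or less without inhibitors, was lower with ISO than with SR-3420 (log2 -1.15). In the HSF family, Hsf2 was higher by 0.26 with SR-3420 and Hsf4 lower by 0.54, and Hsbp1, which binds HSF1 trimers, fell by 0.41 with ISO and 0.48 with SR-3420. Of these 3 genes, 1 was thus higher and 2 lower with SR-3420, but 0 and 2 with total counts and 1 and 1 with DESeq2. With ISO 0 were higher and 1 lower, but 3 were lower with total counts and 2 with the replicate number as a block.

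**Figure D4:**
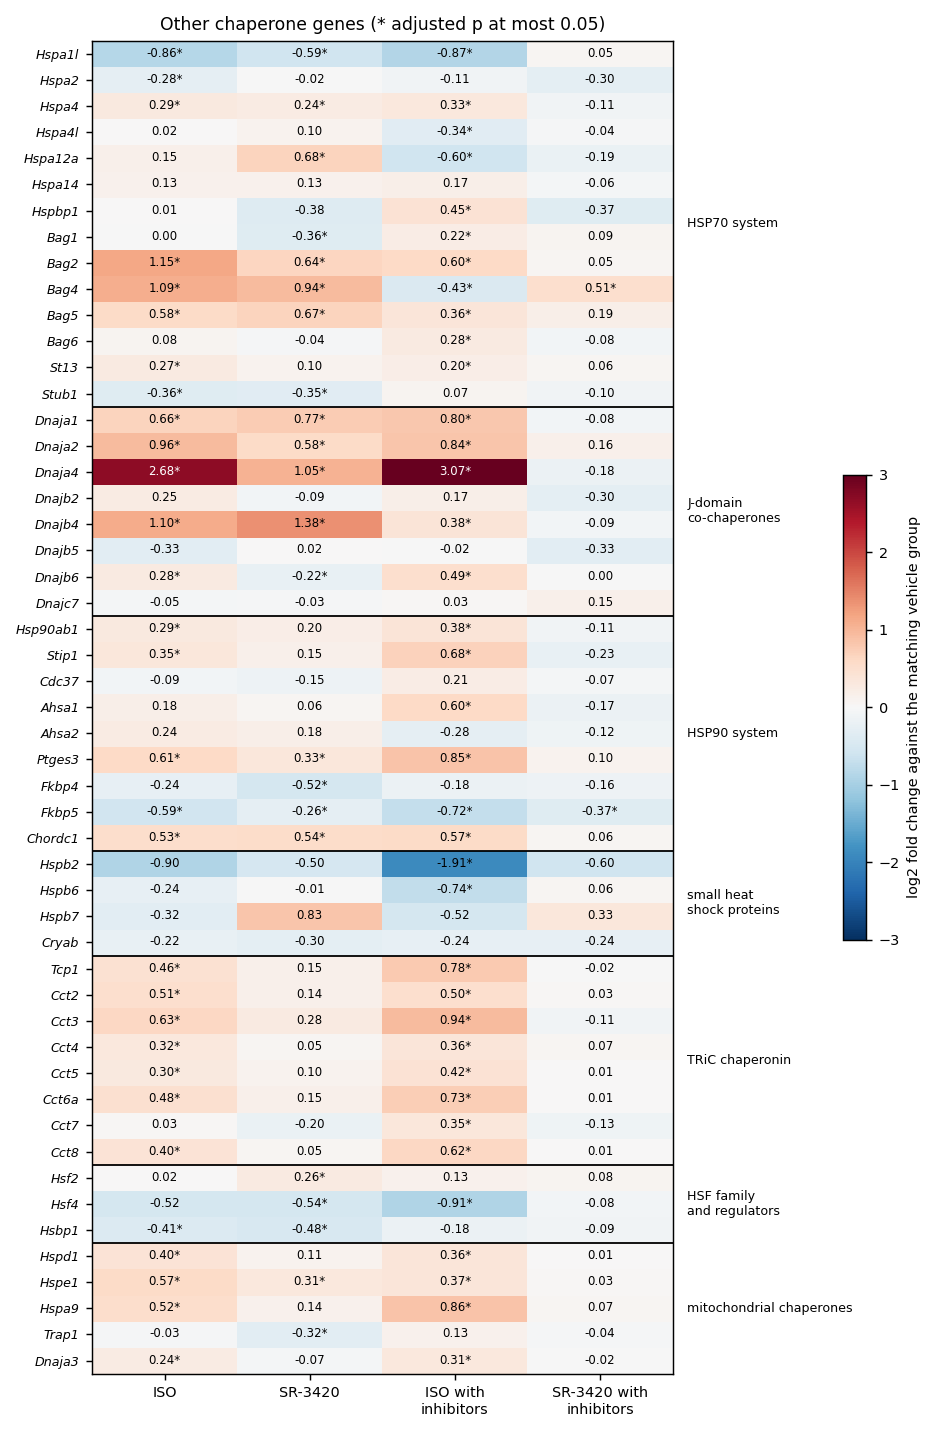
Log2 fold change of 51 other chaperone genes against the matching vehicle group, grouped by list, for ISO and SR-3420 without and with inhibitors; an asterisk marks an adjusted p of at most 0.05. Dnaja4 has the darkest cells (2.68 and 3.07 with ISO), the TRiC subunits are raised in the ISO columns and carry no asterisk in the SR-3420 columns, and the last column carries 2 asterisks (Bag4 and Fkbp5). With total counts alone 1 of the 8 TRiC subunits passed with ISO in place of 7, and with the replicate number as a block 3 passed with SR-3420 in place of 0.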

How the data were processed

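Gene counts were analysed in 18 libraries of BAT-LgT cells, 3 in each of 6 groups. The deposited values are raw counts per RefSeq gene, which the authors made by aligning reads with STAR 2.4.2a to mm9, building HOMER tag directories and counting with iRNA-seq; strand use is not stated, and no replicates were pooled. The methods describe keeping 1 read per position and length, a limit on the counts of abundant genes, yet counts reached 20.2 per counted base (Hspa8), and whether the limit applied here is not known. All 18 libraries entered 1 model in edgeR 4.0.16 (R 4.3.3) with TMM factors, filterByExpr (minimum count 10, minimum total 15), the quasi-likelihood test and Benjamini-Hochberg adjustment, called at an adjusted p of at most 0.05. SEs were the log2 fold change divided by the square root of F, and intervals are normal. Per-kilobase levels used the deposited counted length. The model was tested on simulated counts. Alternatives were DESeq2 1.42.0, RLE factors, total counts, other filters, the replicate number as a block, the groups compared alone, Lars2 left out and each library left out. All 10 genes are named, and other chaperones where they passed an absolute log2 fold change of 1. The members and lists were chosen with earlier results of these data known. The libraries are from 1 line, so p-values describe the spread between these cultures. Columns of other samples numbered 0. One gene that the rule for likeness to Hspa1a and Hspa1b selected is not reported here.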

Additional observations from a re-analysis of the deposited data

Results flagged for a closer look

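The effect of an agent with lipase inhibitors differed from its effect without them for the following values, by the interaction term of the edgeR fit, given as the effect with minus the effect without inhibitors on the log2 scale. For ISO it was -3.80 for Hspa1a, -3.42 for Hspa1b, -3.49 for their sum, -2.90 for Hspb1, -1.03 for Dnajb1 and -0.49 for Hsp90aa1, the last of which depended on single libraries. For SR-3420 it was -3.64 for Hspa1a, -3.20 for Hspa1b, -3.29 for their sum, -2.48 for Hspb1, -1.69 for Dnajb1, -1.57 for Hsph1, -1.32 for Hsp90aa1, -1.12 for Bag3, -0.76 for Hspa8 and -0.73 for Hspb8. The largest adjusted p among these was 0.0269, for Hsp90aa1 with ISO, and 0.00239 with SR-3420, for Hspb8. Groups of 3 libraries were too small to test for a single library far from the others.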

How the results depend on the processing

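Of 49 called values (the 10 genes and the Hspa1a and Hspa1b sum over 8 comparisons), 44 kept their call without any single library. Over all alternatives, 1249 of 1284 values kept the call, 34 lost it while keeping the direction, and 1283 kept the direction. The exception, Hsf1 with ISO at -0.013 under total counts, lost its call as well (adjusted p = 0.94). Total counts also turned uncalled values, to -0.021 for Hspa1b and -0.014 for the sum with inhibitors alone, to -0.018 for Hsph1 and -0.087 for Hsp90aa1 with SR-3420 and inhibitors, to -0.047 for Dnajb1 with ISO and inhibitors, to -0.117 for Hsf1 in ISO versus SR-3420, and to 0.021 for Hsph1 and 0.064 for Hsf1 in the ISO by inhibitor interaction. With inhibitors alone Hspa1b was -0.003 without a low-count filter, -0.004 with 1 CPM in 3 samples and -0.002 on the groups compared alone. The cause was not tested. The sum with SR-3420 and inhibitors passed at -0.416 without a filter, -0.413 on the groups compared and -0.395 with the replicate block. The count of genes lower there was then 1 in place of 0. The count higher in the ISO by inhibitor interaction was 1 with total counts, no filter or the block, and 0 to 1 over libraries left out. In ISO versus SR-3420 the count higher was 1 with total counts and 1 to 4 over libraries left out, and the count lower was 0 with DESeq2 or the groups compared and 0 to 1 over libraries left out.

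With each library left out in turn, these uncalled values crossed 0. In ISO versus SR-3420 they ran from -0.415 to 0.075 for Hspa1a, -0.27 to 0.13 for Hspa1b, -0.303 to 0.118 for their sum, -0.029 to 0.42 for Hsph1, -0.039 to 0.512 for Hspb1 and -0.106 to 0.146 for Hsf1. With inhibitors alone they ran from -0.108 to 0.145 for Hspa1a, -0.048 to 0.052 for Hspa1b, -0.059 to 0.069 for the sum and -0.174 to 0.034 for Hsf1. With SR-3420 and inhibitors they ran from -0.064 to 0.064 for Hsp90aa1, -0.049 to 0.021 for Dnajb1, -0.236 to 0.016 for Hspb8 and -0.138 to 0.065 for Hsf1, and in the ISO by inhibitor interaction from -0.262 to 0.186 for Hsph1 and -0.129 to 0.122 for Hsf1.

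The main fit did not take the replicate numbers as pairs, because they are not stated to mark a shared experiment. The mean correlation of deviations between libraries with the same number was -0.0118, 0.15 and 0.19 for numbers 1, 2 and 3. Of the 18 libraries, 14 correlated best with a library of their own number, so the numbers may mark a pairing that the main fit left out. The block called values that the main fit did not. These were Hsf1 with SR-3420 (adjusted p = 0.0289) and Hspa1b (0.0318) and the sum (0.0347) with SR-3420 and inhibitors. Hsf1 (0.0176) and Hspb1 (0.0321) with ISO and inhibitors were called too. So was the ISO by inhibitor interaction of Hspa8 (0.013) and Hspb8 (0.0154). With the number as a block, Dnajb1 and Hsf1 with SR-3420 and inhibitors were 0.009 and 0.002, and calls over all genes rose from 6300 to 6853 with ISO, from 111 to 269 with inhibitors alone (221 with DESeq2, 69 with total counts) and from 528 to 852 with SR-3420 and inhibitors (344 with total counts). With 3 libraries a group, the SE on the log2 scale was 0.09 to 0.25 for comparisons of 2 groups, so small differences could be missed. Differences larger than their SE could also fail the edgeR test, as did Hspa1b with SR-3420 and inhibitors (-0.40 ± 0.15, adjusted p = 0.174).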
